A study of Rattus norvegicus with 6 samples.

Results

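The response of FE8 cells to decitabine was read from 3 arrays of the 6 in the series. FE8 is a rat fibroblast line transformed by the HRAS oncogene, and decitabine is the generic name of 5-aza-2'-deoxycytidine. The 3 arrays were chosen by line and treatment alone: 2 arrays of FE8 cells kept for 96 h in 0.3 µM of the drug, called treated replicates 1 and 2, and 1 array of untreated FE8 cells, called the control. The other 3 arrays hold 208F, the immortal fibroblasts that the study sets beside FE8, in the same arrangement, and they enter here for the estimate of spread and for a comparison of the drug effects. All cells of the FE8 arrays carry the oncogene, the control included, and no vehicle is named for the control. The labels do not say whether the duplicates were separate cultures, so the p-values rest on a spread between samples that could be technical only.

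Decitabine is a cytidine analogue that is built into replicating DNA, where it traps DNA methyltransferases, so that CpG methylation is lost as cells divide. Genes that methylated promoters keep silent, among them germline genes and genes of other lineages, are known to be expressed after such loss, and demethylated repeats are known to set off an interferon response in many cell types. In RAS-transformed fibroblasts the RAS-MAPK cascade drives immediate early genes and secreted proteases. The study's question was which genes change in expression after demethylation in such cells. Methylation itself was not among the values analysed here.

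The values were signal intensities per probe set from an Affymetrix rat genome array, on a linear scale, for 4818 probe sets other than controls. The median signal was 356 in the control and 406 and 382 in the treated arrays. The treated arrays correlated with each other at r = 0.969 over probe sets and with the control at 0.900 and 0.913, on the scale log2(signal + 64). The control was run on chips of another lot and on another day than both treated arrays, so the drug and the run session cannot be told apart in any value below. Bacterial RNAs added at hybridisation lay below the control at a median of -0.39 and -0.14 on the log2 scale in treated replicates 1 and 2, over 9 probe sets. The ratio of 5' to 3' signal of GAPDH, a sign of RNA quality, was 0.691 in the control and 1.13 and 1.07 in the treated arrays, and that of beta-actin was 0.351, 0.405 and 0.384. The part of session and RNA quality in the results was not tested. Hras was not among the measured genes, so the labelled transformation could not be checked. Of 11 fibroblast markers 10 were measured, and their summed signal was 90921 in the control and 76320 and 80682 in the treated arrays. None of 10 leukocyte markers was measured, and the single endothelial marker measured, Kdr, was at 84, 9 and 2. In such bulk samples, more cells of a kind and more RNA per cell cannot be told apart.

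Of the 4818 probe sets, 244 (5.06%) were called higher and 149 (3.09%) lower in treated than in untreated FE8 cells, together 8.16%. Called means an adjusted p under 0.05 in the moderated test of limma with Benjamini-Hochberg adjustment, and every difference below is a log2 difference of signal + 64 with its standard error (n = 2 treated, 1 untreated). Differences of genes with signals near 64 are held down by that added value. All 393 called probe sets differed from the control in the same direction in both treated arrays, and the smallest called difference was 0.943. Both differences subtract the same control array, so such agreement is in part built in. The median over all probe sets was 0.08, and it became -0.04 when arrays were centred on their medians or quantile-normalized, a shift to set beside small differences.

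Large rises outnumbered large falls. Both treated arrays were at least 2 log2 units above the control for 82 probe sets and as far below it for 20. At 3 log2 units the counts were 17 and 4. Among 985 probe sets with a control signal under 100, 84 were called higher and 0 lower, against 214 and 3 at an unadjusted p under 0.05 in limma, and such signals have little room to fall on this scale. Leaving out arrays changed the counts: 59 probe sets were higher and 17 lower without treated replicate 1, and 54 and 23 without treated replicate 2. Without 208F treated replicate 1 they were 409 and 374, and without 208F treated replicate 2 they were 406 and 373. In both of these fits 1 residual degree of freedom was left and the prior degrees of freedom were infinite. With all arrays they were 2 and 9.02. The p-values of both fits thus rest on a spread fitted to mean signal, not on each probe set's own spread. Without a treated FE8 array, the only pair left to give a spread is the treated 208F pair, whose arrays differ in lot and day. Calls lost in those fits, here and in the lists below, thus need not mean that the treated FE8 arrays disagree. The calls that stood in the full fit and with either treated FE8 array alone numbered 41 higher and 13 lower.

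**Figure D1:**
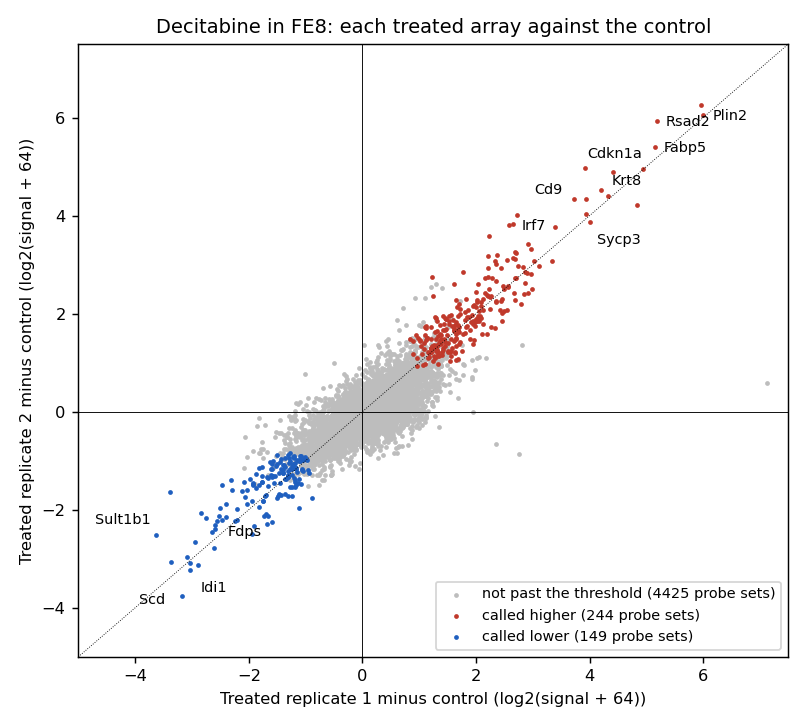
Log2 difference of treated replicate 1 (x axis) and treated replicate 2 (y axis) from the FE8 control, on the scale log2(signal + 64), 1 point per probe set; the dotted line marks equal differences. The 244 probe sets called higher and the 149 called lower lie along that line, in part because both axes subtract the same control array. The grey point at the far right is a probe set that was high in replicate 1 only.

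The treated arrays differed from each other by less than from the control. The median absolute difference between them was 0.272 log2 units, against a median absolute drug difference of 0.397. The widest gap between them was on rc_AA859372_s_at, a probe set with no gene name in the tables used, at 47 in the control, 15394 in treated replicate 1 and 102 in treated replicate 2. It was not called (adjusted p = 0.234).

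The named genes that rose most act in lipid storage, antiviral defence, cell cycle arrest and epithelial structure. Plin2, which coats lipid droplets, was at 38 in the control and at 6483 and 6738 in the treated arrays, a rise of 6.03 ± 0.27 (adjusted p = 4.7e-07). A second probe set of Plin2 was at 22 and then at 116 and 149 and did not pass (1.19 ± 0.39, adjusted p = 0.09). Rsad2, the interferon-induced antiviral protein viperin, went from 137 to 7218 and 12230 (5.56 ± 0.39, adjusted p = 9e-06). Fabp5, a fatty acid-binding protein, went from 8 to 2493 and 2977 (5.28 ± 0.31, adjusted p = 3.6e-06). On these probe sets of the 3 genes both treated arrays lay far above the control, and the gap between them was small beside the rise.

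Cdkn1a, the cyclin-dependent kinase inhibitor p21, was at 43 and then at 2202 and 3104 (4.65 ± 0.39), and its other probe set rose by 2.90. Sycp3, a component of the synaptonemal complex of meiotic chromosomes, was at 6 and then at 1056 and 961 (3.94 ± 0.62, adjusted p = 0.0028). Nppb, which encodes brain natriuretic peptide, was at 11 and then at 690 and 565 (3.20 ± 0.38). These 3 belong to cell cycle arrest, the germ line and the heart.

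Hes1, a transcriptional repressor downstream of Notch, was at 12 in the control and at 594 and 536 after treatment (3.05 ± 0.34). Txnip, which binds thioredoxin and limits glucose uptake, was at 85 and then at 1096 and 977 (2.88 ± 0.28). Crabp2, a carrier of retinoic acid, was at 47 and then at 673 and 809 (2.85 ± 0.34). Each of these had a control signal under 100 and was at least 500 in both treated arrays. In all, 19 genes met that description, and they include Cebpb, a transcription factor of adipocyte and acute-phase genes, Aqp3, a water and glycerol channel, Lgals9, a galectin, and Errfi1, an inhibitor of the EGF receptor. Cebpb went from 54 to 539 and 681 on this probe set and from 1547 to 1843 and 3027 on another that did not pass (0.59 ± 0.35), Aqp3 from 84 to 594 and 730, Lgals9 from 97 to 521 and 610, and Errfi1 from 93 to 736 and 1197.

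**Figure D2:**
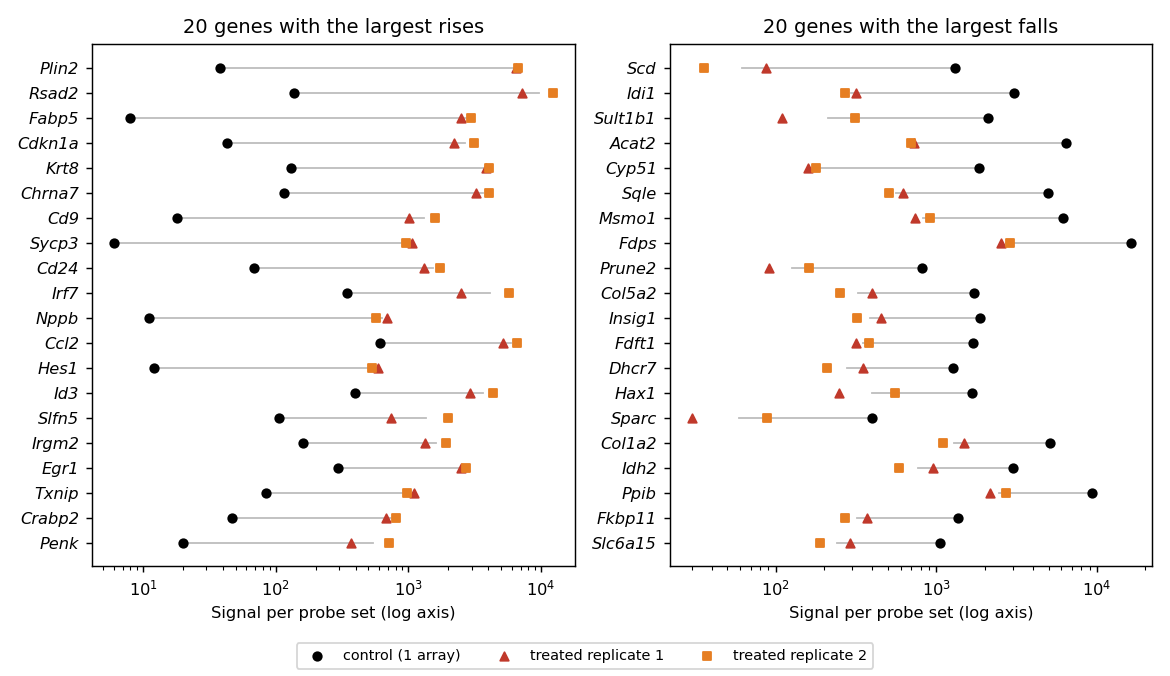
Signal per probe set (log axis) of the 20 genes with the largest rises (left) and the 20 with the largest falls (right) past the threshold in FE8; black circles are the single control array, red triangles and orange squares treated replicates 1 and 2, and grey lines run from the control to the mean of the treated pair. The genes were chosen to have both treated arrays on the same side of the control. Rows run from Plin2 (38 against 6483 and 6738) to Penk on the left and from Scd (1300 against 87 and 36) to Slc6a15 on the right.

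The falls were led by a desaturase and by cholesterol enzymes. Scd, stearoyl-CoA desaturase, which makes monounsaturated fatty acids, was at 1300 in the control and at 87 and 36 after treatment, a log2 difference of -3.47 ± 0.41 (adjusted p = 0.00051). A second probe set of Scd differed by 0.01, so the probe sets of this gene disagree. Sult1b1, a sulfotransferase, was at 2098 and then at 110 and 314 (log2 difference -3.08 ± 0.48). Idh2, the mitochondrial isocitrate dehydrogenase, was at 2998 and then at 950 and 584 (-1.92 ± 0.32), Hax1, a mitochondrial anti-apoptotic protein, at 1665 and then at 248 and 552 (-1.98 ± 0.39), and Prune2 at 817 and then at 91 and 162 (-2.23 ± 0.39). Of the 40 genes with the largest changes 23 had more than 1 probe set, and in 2 of them, Scd and Sparc, a probe set had the opposite sign.

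Cholesterol is made from acetyl-CoA by a chain of enzymes, first through mevalonate to farnesyl pyrophosphate and then through squalene to sterols, whose genes are known to be switched together by the SREBP transcription factors. Of 15 measured genes of this list, 11 fell, 0 rose and 4 did not pass, against 3.22% called lower and 4.95% higher among all 2890 measured genes. Each gene is counted by its brightest probe set in this and all other lists. The list median was -1.99, and the median over all measured genes was 0.075. All 15 lay below the control in both treated arrays, and at an unadjusted p under 0.05 in limma 13 were lower and 0 higher. The share of all measured genes past that unadjusted threshold is not given, so such counts have no background in this and all other lists. Among the 985 probe sets with a control signal under 100 it gave 214 higher and 3 lower. Members and lists, here and below, were chosen with earlier results of these data known. Counts and medians of lists thus describe these data and are no independent test.

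Along the mevalonate branch, Acat2, which joins acetyl-CoA units, was at 6403 in the control and at 727 and 698 after treatment (-3.06 ± 0.30, adjusted p = 0.00015). Idi1, the isopentenyl diphosphate isomerase, was at 3065 and then at 318 and 270 (-3.13 ± 0.31, adjusted p = 0.00016), while another probe set of Idi1 was at 77, 3 and 18 and did not pass (-0.93 ± 0.39). Fdps, which makes farnesyl pyrophosphate, was at 16153 and then at 2510 and 2885 (-2.56 ± 0.28, adjusted p = 0.0003). Both treated arrays lay close together and far below the control in each of the 3. Mvd, the mevalonate pyrophosphate decarboxylase, fell too, by 1.71 ± 0.34, from 844 to 214 and 212. Mvk, the mevalonate kinase, was at 187, 39 and 136 and did not pass (adjusted p = 0.36).

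In the sterol branch, Fdft1, the squalene synthase, was at 1697 in the control and at 318 and 382 after treatment (-2.09 ± 0.32). Sqle, the squalene epoxidase, was at 4970 and then at 617 and 509 (-3.01 ± 0.33, adjusted p = 0.0003). Cyp51, the lanosterol demethylase, was at 5371 and then at 913 and 1112 (-2.34 ± 0.28). These enzymes act in sequence, and Msmo1 (-2.33), Ebp (-1.30) and Dhcr7 (-1.99), which act after them, fell as well. Lss, Nsdhl and Hsd17b7, enzymes of the same branch, had differences of -1.01, -1.12 and -0.74 and did not pass. Insig1, which holds SREBP in the endoplasmic reticulum and is itself an SREBP target, was at 2648 and then at 602 and 838 (-1.81 ± 0.34). With either treated array alone, 5 of the list were called (Idi1, Fdps, Sqle, Cyp51 and Acat2), and without treated replicates 1 and 2 in turn 6 and 7 were lower.

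**Figure D3:**
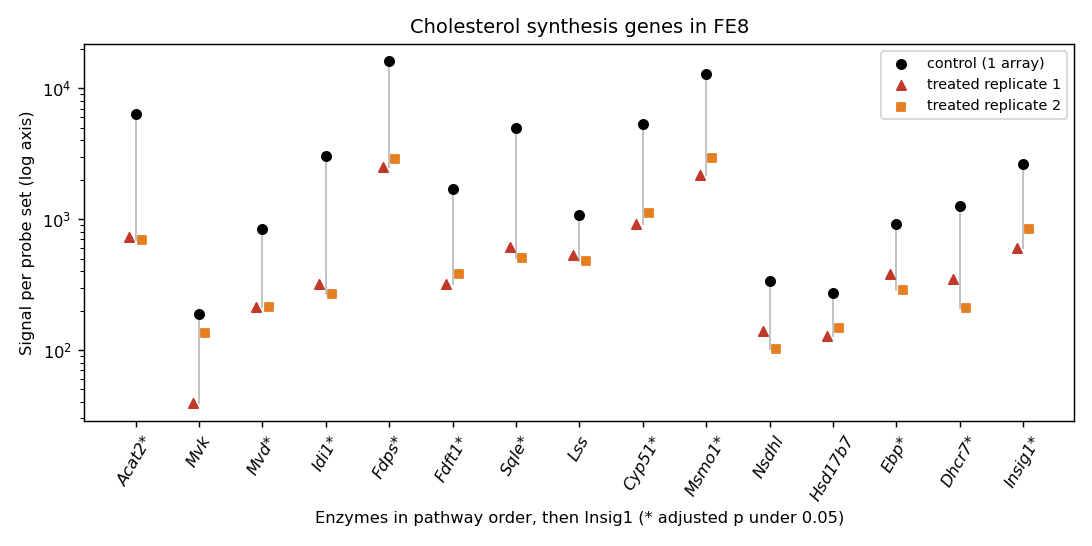
Signal per probe set (log axis) of the 15 measured cholesterol synthesis genes in FE8, enzymes in pathway order and Insig1 last; black circles are the control array, red triangles and orange squares the treated replicates, and an asterisk marks an adjusted p under 0.05. Both treated arrays lie below the control for all 15 genes, and the pair spreads widest on Mvk (39 and 136).

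Promoter sequences of this list were read because its members moved together. Of 13 list genes with a promoter entry, 10 (76.9%) held CCAAT, the core of the NF-Y box, on either strand in the window from 250 bases before to 50 after the start, against 39.1% of 2432 measured genes with a promoter and 37.7% of all 27457 promoters in the table. Of the list, 6 of the 9 genes that fell held it and 3 did not (Acat2, Cyp51 and Dhcr7), and all 4 that did not pass held it. The sterol regulatory element in the form TCACNCCAC was in 0 of 13, against 0.9% of measured genes and 1.1% of all promoters. No match says only that these letters are not in this window. The sequences shown are the 150 bases before the annotated start of 2 of the genes that fell most, from RefSeq on assembly GRCr8, with CCAAT or its reverse complement in capitals. Idi1 lies on chr17:66547525-66547674, minus strand, with matches starting 66 and 35 bases before the start, and Fdps on chr2:176804817-176804966, minus strand, with matches 130 and 85 bases before it.
Idi1: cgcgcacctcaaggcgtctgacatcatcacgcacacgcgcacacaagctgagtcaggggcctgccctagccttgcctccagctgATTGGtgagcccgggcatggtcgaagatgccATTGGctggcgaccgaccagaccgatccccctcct
Fdps: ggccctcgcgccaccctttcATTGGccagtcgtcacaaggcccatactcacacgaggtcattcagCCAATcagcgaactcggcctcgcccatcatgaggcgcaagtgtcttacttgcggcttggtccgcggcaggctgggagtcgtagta

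Fatty acid genes did not move as 1 block. Of 27 measured genes of lipid droplets and fatty acid handling, 3 rose (Plin2, Fabp5 and Fabp4) and 3 fell (Scd, Fasn and Acly). The shares over all measured genes were 4.95% higher and 3.22% lower, and the list median was 0.02. The genes that rose bind or store lipids, and those that fell make fatty acids. Fabp4, the adipocyte fatty acid-binding protein, was at 188 and then at 662 and 841 (1.69 ± 0.39). Fasn, the fatty acid synthase, was at 2185 and then at 602 and 570 (-1.79 ± 0.30, adjusted p = 0.0043), and Acly, which supplies cytosolic acetyl-CoA, was at 8633 and then at 2817 and 3827 (-1.38 ± 0.29). Another probe set of Acly differed by 0.48. Among adipocyte markers, Lpl was at 62, 87 and 64 and Cfd at 224, 285 and 323, and neither passed. With either treated array alone Plin2, Fabp5 and Scd were called.

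Epithelial genes encode the keratins, junctions and surface proteins of sheet-forming cells, and several were near background in the untreated fibroblasts. Of 13 measured members 7 rose, 0 fell and 6 did not pass, against 4.95% higher and 3.22% lower over all measured genes. The list median was 1.19, and an unadjusted p under 0.05 adds none in either direction. Krt8, the type II keratin of simple epithelia, was at 131 in the control and at 3838 and 4077 after treatment (4.37 ± 0.27, adjusted p = 5.2e-06). Krt18, its type I partner, was at 5 and then at 172 and 142 (1.68 ± 0.40), so it passed at a low signal. Cd9, a tetraspanin of the cell surface, was at 18 and then at 1018 and 1584 (4.03 ± 0.39), and Cd24, a heavily glycosylated surface protein, was at 68 and then at 1315 and 1745 (3.58 ± 0.33). All 3 probe sets of Cd24 and both of Cd9 rose.

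Epcam, an epithelial adhesion molecule, was at 9 and then at 335 and 199 (2.15 ± 0.44). Spint2, an inhibitor of membrane serine proteases, was at 50 and then at 554 and 807 (2.69 ± 0.37), and Jup, the junction protein plakoglobin, was at 216 and then at 606 and 548 (1.19 ± 0.32). Tight junction genes of the list did not pass: Cldn7 was at 86, 196 and 170 and Tjp1 at 1750, 1155 and 1328. With either treated array alone Krt8, Spint2, Cd24 and Cd9 were called. Of the 10 fibroblast markers measured, 7 had differences below 0 and 3 above. Col1a2 was called lower, Sparc by its brightest probe set was called higher although its probe sets disagree, and the other 8 did not pass.

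The interferon response list had 5 rises and 0 falls among 16 measured genes, against 4.95% higher and 3.22% lower over all measured genes. Its median was 1.16, and 15 of the 16 lay above the control in both treated arrays. At an unadjusted p under 0.05, 12 were higher and 0 lower. Irf7, the transcription factor that amplifies interferon signalling, was at 346 in the control and at 2497 and 5724 after treatment (3.23 ± 0.41, adjusted p = 0.00085). Eif2ak2, the double-stranded RNA sensor PKR, was at 347 and then at 1586 and 2157 (2.22 ± 0.45, adjusted p = 0.012). Oas1a, an oligoadenylate synthetase, was at 274 and then at 860 and 792 (1.40 ± 0.34). Cxcl10, an interferon-induced chemokine, was already high at 4348 and reached 8112 and 11840 (1.16 ± 0.31, adjusted p = 0.043).

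The treated arrays differed on this list, with a median of 0.907 in replicate 1 and 1.386 in replicate 2. Mx1 and Mx2, antiviral dynamin-like GTPases, showed that spread: Mx1 was at 30, 137 and 199, Mx2 at 126, 298 and 880, and neither passed. Ifnb1, the type I interferon itself, was at 21, 49 and 30 and did not pass (0.28 ± 0.41), and the receptor gene Ifnar1 was at 106, 91 and 94. Outside the list, Irgm2, an immunity-related GTPase, was at 160 and then at 1337 and 1917 (2.90 ± 0.42), and Slfn5, a Schlafen family member, was at 106 and then at 734 and 1973 (2.91 ± 0.48). With either treated array alone Rsad2 and Irf7 were called. The count was 3 with arrays centred on their medians and 10 without either 208F treated array.

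The interferon-stimulated response element was looked for in the same promoter windows, as GAAANNGAAA on either strand. It was in 8 of 14 list genes with a promoter entry (57.1%), in 3.5% of the 2432 measured genes and in 3.8% of all 27457 promoters. Of the 8 carriers, Rsad2, Irf7, Eif2ak2, Oas1a and Cxcl10 were called higher, while Gbp2, Ifitm3 and Oas1b were not called. A match is a description of letters, not of a bound site. The 150 bases before the start are shown for 4 of the called carriers, with the match or its reverse complement in capitals, from RefSeq on GRCr8. Rsad2 is on chr6:48788121-48788270, minus strand, and its match starts 147 bases before the start. Irf7 is on chr1:205800024-205800173, minus strand, with a match 69 bases before the start. Oas1a is on chr12:41330316-41330465, plus strand, with overlapping matches 41 and 35 bases before it, and Eif2ak2 is on chr6:21941004-21941153, plus strand, with a match at 16 bases.
Rsad2: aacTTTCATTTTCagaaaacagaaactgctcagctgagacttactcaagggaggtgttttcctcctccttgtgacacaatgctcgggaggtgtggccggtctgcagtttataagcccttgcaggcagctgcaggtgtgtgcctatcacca
Irf7: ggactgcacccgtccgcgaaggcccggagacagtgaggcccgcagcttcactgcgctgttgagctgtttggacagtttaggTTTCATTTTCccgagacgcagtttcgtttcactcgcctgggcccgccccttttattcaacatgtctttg
Oas1a: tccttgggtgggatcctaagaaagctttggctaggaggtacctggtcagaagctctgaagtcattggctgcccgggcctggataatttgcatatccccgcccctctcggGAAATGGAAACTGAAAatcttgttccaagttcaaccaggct
Eif2ak2: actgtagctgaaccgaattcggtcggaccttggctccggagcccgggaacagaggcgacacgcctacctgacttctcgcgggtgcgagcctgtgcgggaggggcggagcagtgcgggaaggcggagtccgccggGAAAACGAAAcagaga

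Antigen presentation genes moved less. Of 12 measured MHC class I and immunoproteasome genes 1 rose and 1 fell, with a median of 0.39. The shares over all measured genes were 4.95% higher and 3.22% lower. RT1-S3, a rat class I gene, was at 70 and then at 294 and 361 (1.54 ± 0.39), but near-identical class I genes can share its probes. Calr, the chaperone calreticulin, was at 7631 and then at 2801 and 3863 (-1.20 ± 0.29). B2m, the class I light chain, was at 4164, 4486 and 6362, and Tap1, a peptide transporter, at 675, 964 and 1452, and neither passed. Among 12 cytokines and chemokines 3 rose and 0 fell (5 and 2 at an unadjusted p under 0.05). Ccl2, which attracts monocytes, was at 610 and then at 5194 and 6623 (3.14 ± 0.29, adjusted p = 0.00011), Ccl4 was at 67 and then at 338 and 728 (2.11 ± 0.46), and Cxcl2, a neutrophil chemokine, was at 7 and then at 111 and 204 (1.61 ± 0.42). The list counts use the brightest probe set of Ccl2, which was at 1074 and then at 5188 and 8604. It differed from the control by 2.21 and 2.93 in treated replicates 1 and 2. The Ccl2 probe set given first differed by 2.96 and 3.31. The 3 rises became 1 without treated replicate 1, 0 without treated replicate 2 and 1 after quantile normalization.

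RAS-MAPK output genes are transcripts known to follow activity of this cascade. Of 25 measured, 7 rose and 0 fell (9 and 2 at an unadjusted p under 0.05), with a median of 0.57. Called over all measured genes were 4.95% higher and 3.22% lower. Egr1, an immediate early zinc finger transcription factor, was at 2798 in the control and at 21256 and 20151 after treatment on its brightest probe set (2.86 ± 0.29, adjusted p = 0.00017). Its relative Egr2 was at 94 and then at 576 and 507 (1.94 ± 0.38). Dusp1, a phosphatase that switches MAP kinases off, was at 403 and then at 1416 and 1990 (1.90 ± 0.30). All probe sets of Egr1 but 1 of its 4 passed, with differences from 1.26 to 2.89.

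Other immediate early members rose less. Junb, a subunit of AP-1, was at 469 and then at 1280 and 1302 (1.35 ± 0.29), and Ier3 was at 335 and then at 935 and 860 (1.27 ± 0.30). Areg, an EGF receptor ligand, was at 309 and then at 1144 and 1165 (1.71 ± 0.42). Not every member went up: Fosl1, another AP-1 subunit, was at 4140, 1706 and 1890 (-1.18 ± 0.33, adjusted p = 0.051). With either treated array alone Egr1 and Plau were called.

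Secreted proteases and their inhibitors had 7 rises and 0 falls among 26 measured genes (10 and 1 at an unadjusted p under 0.05). Beside this stand 4.95% higher and 3.22% lower over all measured genes. The list median was 0.57, and Plau and Spint2 stand in other lists too. Plau, the urokinase plasminogen activator, was at 61 and then at 635 and 676 (2.52 ± 0.35). Mmp2, the gelatinase A, was at 21 and then at 298 and 334 (2.16 ± 0.32), Mmp9, the gelatinase B, was at 21 and then at 190 and 222 (1.67 ± 0.43), and Mmp12, the macrophage elastase, was at 12 and then at 150 and 162 (1.53 ± 0.39). Mmp13, a collagenase, was at 14268, 6859 and 8014 and did not pass (-0.94 ± 0.27, adjusted p = 0.06). Inhibitors rose beside the enzymes: Timp1 was at 1520 and then at 4625 and 3427 (1.35 ± 0.29), and Serpinb2, an inhibitor of Plau, was at 990 and then at 2221 and 2826 (1.29 ± 0.35). The count of rises was 4 after quantile normalization, 3 without treated replicate 1 and 2 without treated replicate 2.

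In the TGF-beta and BMP list 6 of 18 rose and 0 fell, as also at an unadjusted p under 0.05, with a median of 0.30. Called over all measured genes were 4.95% higher and 3.22% lower. The Id genes, inhibitors of helix-loop-helix factors and known BMP targets, all 3 rose. Id1 was at 679 and then at 5299 and 3881 (2.63 ± 0.29, adjusted p = 0.0003), with another probe set at 218, 413 and 284 that did not pass (0.53 ± 0.36). Id2 was at 338 and then at 1514 and 1765 (2.08 ± 0.35), and Id3 on its brightest probe set was at 2257 and then at 5932 and 6279 (1.41 ± 0.26). The other probe set of Id3 was at 398 and then at 2892 and 4358 (2.97 ± 0.35, adjusted p = 0.00049). Fst, the activin antagonist follistatin, was at 71 and then at 658 and 508 (2.25 ± 0.33). Gdf15, a stress-induced member of the TGF-beta family, was at 51 and then at 464 and 537 (2.29 ± 0.39), and Ltbp2, which is related to the latent TGF-beta binding proteins, was at 16 and then at 172 and 248 (1.76 ± 0.38). Only 1 and 2 rises were called without treated replicates 1 and 2, Id1 in both.

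Genes of mitosis lay below the control. Of 14 measured mitosis genes 4 fell and 0 rose (10 and 0 at an unadjusted p under 0.05). The shares over all measured genes were 3.22% lower and 4.95% higher. The list median was -1.01 (-0.94 and -0.98 in treated replicates 1 and 2), and 13 lay below the control in both treated arrays. Top2a, the topoisomerase that untangles replicated DNA, was at 4983 in the control and at 1597 and 2166 after treatment (-1.39 ± 0.28, adjusted p = 0.011), though the mean of its probe sets did not pass (-0.83). Cdk1, the mitotic kinase, was at 2507 and then at 1004 and 1216 (-1.14 ± 0.28), and Ccnb1, its cyclin, was at 1849 and then at 833 and 962 (-0.996 ± 0.271, adjusted p = 0.046). Tubb5, a beta-tubulin, was at 12384 and then at 5382 and 4678 (-1.29 ± 0.32). Plk1 and Aurkb, kinases of mitosis, had differences of -1.02 and -1.23 and did not pass (adjusted p = 0.061 and 0.085).

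No mitosis gene was called with either treated array alone. The count of falls was 2 after quantile normalization, 6 after centring and 11 without either 208F treated array. Among 17 replication and G1/S genes 1 rose and 1 fell, beside 4.95% higher and 3.22% lower over all measured genes. Ccnd1, cyclin D1, was at 1873 and then at 5887 and 5995 (1.63 ± 0.27, adjusted p = 0.004), while Mcm7, a subunit of the replicative helicase, was at 2348 and then at 1103 and 1154 (-1.02 ± 0.26). Of 6 p53 targets and growth arrest genes measured, Cdkn1a and Mdm2 rose. Gas6, also in this list, was not called on its brightest probe set (0.05), though its other probe set was called higher (1.57). Mdm2, the ubiquitin ligase of p53, was at 1863 and then at 5016 and 4388 (1.30 ± 0.26), while Gadd45a was at 1927, 2260 and 2097 and Ccng1 at 8913, 5948 and 5012, and neither passed.

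Mitosis promoters held CCAAT in 12 of 13 genes with an entry (92.3%), against the 39.1% of measured genes given above. The 4 that fell all held it, as did 8 of the 9 that did not pass. The 150 bases before the start are shown for the kinase and its cyclin, since they act as a complex and both fell, with the matches in capitals (RefSeq, GRCr8). Ccnb1 is on chr2:33655226-33655375, minus strand, with matches 82 and 50 bases before the start, and Cdk1 on chr20:19265143-19265292, plus strand, with matches 81 and 49 bases before it. In both promoters the matches lie at like distances from the start.
Ccnb1: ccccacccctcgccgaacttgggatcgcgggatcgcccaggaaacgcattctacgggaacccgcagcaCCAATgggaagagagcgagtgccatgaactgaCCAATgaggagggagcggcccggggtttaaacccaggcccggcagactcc
Cdk1: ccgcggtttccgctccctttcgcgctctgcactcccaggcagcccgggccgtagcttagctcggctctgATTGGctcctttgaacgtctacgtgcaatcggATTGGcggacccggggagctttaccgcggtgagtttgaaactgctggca

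Several chaperones of the endoplasmic reticulum fell. Of 18 measured genes of the integrated and endoplasmic reticulum stress responses, 4 fell and 1 rose, with a median of -0.58. The shares over all measured genes were 3.22% lower and 4.95% higher. Hspa5, the lumenal chaperone BiP, was at 11380 in the control and at 4359 and 5342 after treatment (-1.23 ± 0.27, adjusted p = 0.020), though the mean of its probe sets did not pass (-0.91). Pdia4 and Pdia6, disulfide isomerases, were at 4206 and then at 1065 and 1476 (-1.70 ± 0.32), and at 6447 and then at 1777 and 2255 (-1.66 ± 0.29). Calr is the fourth gene that fell, and the mean of its probe sets did not pass either (-0.98). Ppib, a prolyl isomerase of the same compartment outside the list, was at 9242 and then at 2156 and 2727 (-1.90 ± 0.30), and Fkbp11, another, was at 1356 and then at 372 and 269 (-1.90 ± 0.34).

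Atf3, a stress-induced transcription factor, was the gene of this list that rose, from 207 to 682 and 794 (1.56 ± 0.33). With either treated array left out, no gene of this list was called. Of 16 heat shock genes and chaperones, mostly cytosolic, 2 rose and 0 fell (7 and 0 at an unadjusted p under 0.05). Called over all measured genes were 4.95% higher and 3.22% lower. Cryab, a small heat shock protein, was at 37 and then at 490 and 341 (2.23 ± 0.32), and Hsph1 was at 2059 and then at 5268 and 6122 (1.44 ± 0.28). Hspd1 and Hsp90ab1, which are abundant chaperones, were at 9531, 6693 and 7841 and at 17132, 14068 and 18996, and neither passed.

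In the extracellular matrix 3 collagen genes fell and a pair of syndecans rose. Of 25 extracellular matrix genes 5 fell and 3 rose, against 3.22% lower and 4.95% higher over all measured genes. The list median was -0.05. Col1a2 was at 5073 in the control and at 1479 and 1108 after treatment (-1.93 ± 0.31), and Col5a2 was at 1706 and then at 399 and 251 (-2.21 ± 0.30, adjusted p = 0.0012). Lox, which cross-links collagen, was at 2953 and then at 1060 and 868 (-1.56 ± 0.27). Of its 4 probe sets only 1 was called lower, with differences from -1.56 to -0.45 and a mean of -0.87. Bgn, the proteoglycan biglycan, was at 2309 and then at 898 and 654 (-1.51 ± 0.29), although another probe set of Bgn differed by 0.54. Col5a1 fell by 1.27 ± 0.33, from 576 to 240 and 167.

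The proteoglycans Sdc1 and Sdc4, syndecans of the cell surface, were at 1132 and then at 3241 and 4390 (1.68 ± 0.28), and at 1626 and then at 5444 and 5159 (1.67 ± 0.32). Sparc, a matrix glycoprotein, cannot be given a direction. Its brightest probe set was at 6913 and then at 14909 and 20565 (1.33 ± 0.34), while 3 other probe sets were called lower, 1 of them at 397 and then at 30 and 88 (-1.95 ± 0.37), and the mean of its probe sets lay lower at -0.87 (adjusted p = 0.044). Without treated replicate 1, 0 of the list were higher and 1 was lower, and without treated replicate 2 none was called.

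Genes of nerve, muscle and germ cells were among the rises. Of 19 neuronal and neuroendocrine genes 5 rose and 1 fell, against 4.95% higher and 3.22% lower over all measured genes. The list median was 0.67. Chrna7, the alpha7 subunit of the nicotinic acetylcholine receptor, was at 115 and then at 3230 and 4023 (4.36 ± 0.29, adjusted p = 7.5e-06), though its other probe set differed by 0.31. Th, tyrosine hydroxylase, which makes the catecholamine precursor, was at 270 and then at 2048 and 1729 (2.54 ± 0.33). Penk, the enkephalin precursor, was at 20 and then at 370 and 708 (2.78 ± 0.43, adjusted p = 0.0027). Prph, a neuronal intermediate filament, was at 50 and then at 359 and 298 (1.78 ± 0.38), and Ocm, the calcium-binding protein oncomodulin, was at 1699 and then at 4030 and 4291 (1.26 ± 0.29). Slc6a15, a neutral amino acid transporter of neurons, was the member that fell, from 1050 to 290 and 190 (-1.89 ± 0.41). Defining neuronal markers stayed low: Syp was at 28, 172 and 59 and Snap25 at 54, 172 and 30, and neither passed.

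Of 13 muscle genes 3 rose and 0 fell (6 and 0 at an unadjusted p under 0.05). The shares over all measured genes were 4.95% higher and 3.22% lower. Myod1, the master regulator of skeletal muscle, was at 12 and then at 206 and 188 (1.78 ± 0.35, adjusted p = 0.0094). Ckb, the brain-type creatine kinase, was at 155 and then at 624 and 494 (1.5 ± 0.33), and Cryab is the third. Des, desmin, was at 14, 141 and 383 and missed the threshold (1.96 ± 0.54, adjusted p = 0.051), and the contractile gene Acta1 was at 9, 65 and 27. The 3 rises became 0 without treated replicate 1 and 1 without treated replicate 2.

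Germline and imprinted genes did not rise as a group, with 1 higher and 1 lower of 11 measured and a median of 0.19. Called over all measured genes were 4.95% higher and 3.22% lower. Sycp3 was the gene that rose. Its partner Sycp2 was at 7, 63 and 71 and did not pass (0.88 ± 0.40), and the germ cell helicase Ddx4 was at 29, 213 and 282 (1.74 ± 0.50, adjusted p = 0.06). The imprinted genes H19 and Igf2 were at 22, 45 and 24 and at 213, 442 and 179, and neither passed. Grb10, an imprinted adaptor of growth factor receptors, was at 394 and then at 126 and 93 (-1.41 ± 0.32). Dnmt1, the maintenance methyltransferase that the drug traps as protein, was at 855, 878 and 973 (0.11 ± 0.28, adjusted p = 0.88).

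The list of genes known to be silenced in RAS-transformed rat fibroblasts was drawn up from work on cells of this kind, so it is not independent of the line. Of 6 measured, 2 rose and 1 fell, beside 4.95% higher and 3.22% lower over all measured genes. Cav1, the caveolar coat protein caveolin-1, was at 586 and then at 1951 and 1437 (1.42 ± 0.38), and Rrad, a RAS-related GTPase, was at 132 and then at 496 and 399 (1.38 ± 0.36). Lox, also in this list, was called lower on 1 of its 4 probe sets. Clu, the secreted chaperone clusterin, was at 2136, 3799 and 3293 and did not pass (0.71 ± 0.30, adjusted p = 0.20), and Tagln, a smooth muscle actin-binding protein, was at 24, 55 and 25.

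Some detoxification genes passed in each direction. Abcb1b, the drug efflux pump P-glycoprotein, was at 890 in the control and at 5540 and 5566 after treatment (2.56 ± 0.26, adjusted p = 0.00017). Of 17 drug transport and xenobiotic genes it was the 1 that rose, and Sult1b1 the 1 that fell. Of 30 NRF2 and glutathione genes 4 rose and 1 fell, and none was called when either treated array was left out. The counts of both lists are few and are to be read against the 4.95% called higher and 3.22% lower among all measured genes. Nqo1, a quinone reductase, was at 1421 and then at 4594 and 5193 (1.74 ± 0.26), Ptgr1, a prostaglandin reductase, at 14 and then at 300 and 380 (2.37 ± 0.46), and Gclc, which makes the glutathione precursor, at 190 and then at 622 and 646 (1.46 ± 0.32). Tkt, transketolase, was at 3440 and then at 1345 and 1454 (-1.26 ± 0.27), with a mean over its probe sets that did not pass (-0.84). Of 23 growth factor ligands and receptors 2 rose, Areg and Fgfr1. Of 20 genes of the actin cytoskeleton 1 rose, Cald1, an actin-binding protein, from 14 to 237 and 219 (1.90 ± 0.34).

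Housekeeping lists had small medians. Called over all measured genes were 4.95% higher and 3.22% lower, so counts as small as those below say little about these lists. None of 37 cytosolic ribosomal protein genes was called in limma (0 higher and 3 lower at an unadjusted p under 0.05). Their median was -0.17, with a range from -0.89 to 0.50. Of the 37, 28 had differences below 0, and 25 lay below the control in both treated arrays. Of 31 genes listed under respiratory chain and ATP synthase 1 fell and 0 rose, and the median was -0.18. The gene that fell was Vdac1, an outer membrane channel that is part of neither. Of 16 glycolysis genes 1 rose, the glucose transporter Slc2a3, from 226 to 867 and 544 (1.38 ± 0.37), and the median was -0.10.

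**Figure D4:**
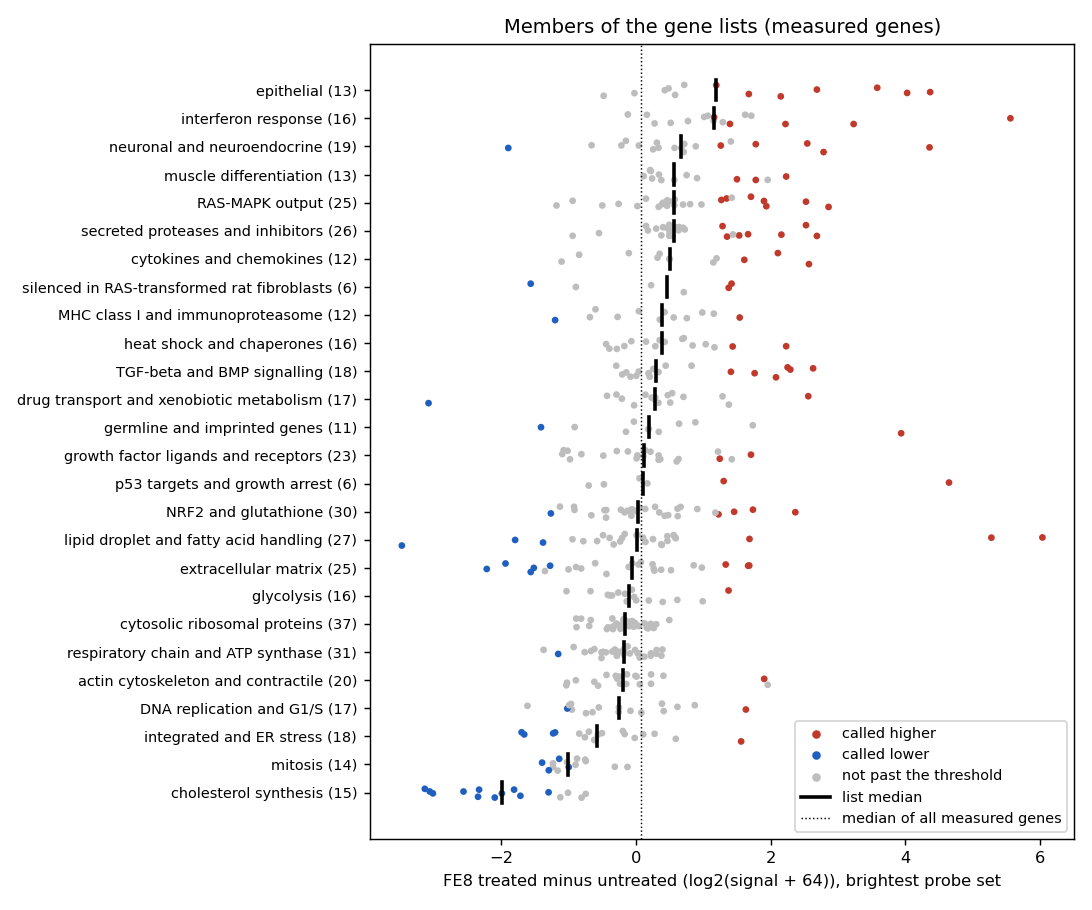
Log2 difference of treated from untreated FE8 (x axis, log2(signal + 64)) for the members of the 26 lists with at least 4 measured genes, 1 point per gene by its brightest probe set, red if called higher, blue if called lower and grey otherwise; thick bars are list medians and the dotted line is the median over all measured genes, 0.075. Epithelial and interferon genes stand at the top with medians of 1.19 and 1.16, and mitosis and cholesterol synthesis at the bottom with -1.01 and -1.99.

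Several of the strongest rises were on probe sets that the tables used give no single gene. The largest of all was on X62950mRNA_f_at, at 75 in the control and at 8603 and 10611 after treatment (6.11 ± 0.28, adjusted p = 4.7e-07). The probe set rc_AA892146_f_at was at 596 and then at 20208 and 20357 (4.95 ± 0.28). Of 23 probe sets called higher by at least 3 log2 units, 7 had no single gene symbol, and 4 carried the suffix _f, which marks probes shared within a family of sequences. Among all 98 tested probe sets with that suffix 16 (16.3%) were called higher, against 142 of 3228 (4.4%) with no suffix. Such probe sets can read several transcripts at once, and what they read was not resolved here.

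Promoter CpG content was described by direction of change, since the drug acts on CpG methylation. A promoter window of 300 bases was called CpG-rich with an observed to expected CpG ratio of at least 0.6 and at least 50% G+C. Of genes called higher with a promoter entry, 72 of 125 (57.6%) were CpG-rich, of genes called lower 65 of 86 (75.6%), and of all measured genes 1657 of 2432 (68.1%). Expression level moves with this measure: among genes with a control signal under 100, 40.9% of all and 43.6% of those called higher were CpG-rich, and among genes at 100 or more, 74.1% of all and 60.6% of those called higher. The median number of CpGs in the window was 20 for genes that rose, 22 for genes that fell and 21 for all. No test was made on these shares.

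The windows of the genes that rose ranged widely, as 3 of them show. The 250 bases before the start are printed with each CG in capitals (RefSeq, GRCr8). Sycp3, on chr7:24761226-24761475, plus strand, holds 10 CGs in these bases and is not CpG-rich, with an observed to expected ratio of 0.489 over its full window. Chrna7, on chr1:126249130-126249379, minus strand, holds 27 and is CpG-rich with a ratio of 1.115. Krt8, on chr7:135010340-135010589, minus strand, holds 8 and is not CpG-rich, with a ratio of 0.391.
Sycp3: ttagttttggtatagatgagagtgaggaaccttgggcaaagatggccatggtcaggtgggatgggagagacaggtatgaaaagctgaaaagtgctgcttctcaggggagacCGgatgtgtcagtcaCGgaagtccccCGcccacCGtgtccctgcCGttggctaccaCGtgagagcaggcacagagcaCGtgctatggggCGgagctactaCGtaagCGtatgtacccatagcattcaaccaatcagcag
Chrna7: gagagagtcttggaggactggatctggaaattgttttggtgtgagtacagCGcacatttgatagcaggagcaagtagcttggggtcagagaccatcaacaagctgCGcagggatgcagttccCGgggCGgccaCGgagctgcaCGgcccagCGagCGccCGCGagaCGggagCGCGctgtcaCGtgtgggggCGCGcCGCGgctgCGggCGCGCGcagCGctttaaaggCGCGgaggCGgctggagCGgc
Krt8: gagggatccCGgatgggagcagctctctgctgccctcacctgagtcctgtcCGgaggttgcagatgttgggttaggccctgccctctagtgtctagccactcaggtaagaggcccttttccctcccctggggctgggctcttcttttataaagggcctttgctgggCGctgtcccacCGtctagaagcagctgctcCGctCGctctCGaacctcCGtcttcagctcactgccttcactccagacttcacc

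The drug effect in FE8 was set against that in 208F, whose arrays are other samples. The untreated arrays of both lines shared a chip lot and a run day. So did 208F treated replicate 2 and both treated FE8 arrays, while 208F treated replicate 1 was of another lot and day. Both drug effects thus share in part a change of session, and its part in the overlap below was not tested. In 208F 173 probe sets (3.59%) were called higher and 77 (1.6%) lower. Called higher in both lines were 94 probe sets, 38.5% of those of FE8 and 54.3% of those of 208F. Called lower in both were 31, 20.8% of those of FE8 and 40.3% of those of 208F. Cdkn1a, Krt8, Chrna7, Cd24 and Crabp2 were among the genes called higher in both, with 208F differences of 3.91, 3.79, 5.18, 3.79 and 2.98.

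The difference between the lines' effects was tested as an interaction, and 3 probe sets (0.0623%) passed, while 364 had an unadjusted p under 0.05. Plin2 rose in both lines and more in FE8, as 208F went from 96 to 1568 and 1551, and the FE8 effect was 2.69 ± 0.39 larger (adjusted p = 0.038), while on its second probe set the difference was 0.94 (adjusted p = 0.86). Ocm rose less in FE8, since 208F went from 74 to 3518 and 2490, and the FE8 effect minus that in 208F was -3.19 ± 0.41. Ptprn, a receptor-type phosphatase of secretory granules, was at 3277, 3016 and 2888 in FE8 and at 35 and then 527 and 595 in 208F (-2.80 ± 0.40). Ocm and Ptprn thus were already high in untreated FE8 cells and near background in untreated 208F cells.

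The number of interaction calls moved with the setting. It was 0 after quantile normalization, with a mean signal of at least 100, without an intensity trend, with the replicate block and without either FE8 treated array, 9 after centring, 206 without 208F treated replicate 1 and 99 without 208F treated replicate 2, the last 2 from the fits with infinite prior degrees of freedom. Genes that just missed the threshold of the interaction test had adjusted p-values from 0.051 to 0.055. Aqp8, a water channel, was at 18 and then at 530 and 439 in FE8 and at 85, 43 and 35 in 208F, a difference of 3.27 ± 0.55. Hes1 was at 406, 460 and 557 in 208F, against its change from 12 in FE8 (2.77 ± 0.49). Scd was at 13, 18 and 11 in 208F, near background with and without the drug (-3.50 ± 0.59). H19, a non-coding RNA that is imprinted, was at 79 and then at 1830 and 1560 in 208F, while it did not pass in FE8 (-3.43 ± 0.53).

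For Fabp5 and Egr1 the FE8 effect minus that in 208F was 2.74 and 2.31, and Col1a1, collagen I, fell in 208F from 11000 to 3243 and 3338 while it was at 130, 204 and 188 in FE8. Trib3, a pseudokinase of the stress response, and Psmb8, an immunoproteasome subunit, rose in 208F, from 143 to 1302 and 2524 and from 29 to 686 and 545. In FE8 Trib3 was at 2111, 2178 and 1996 and Psmb8 at 999, 1303 and 1429. Neither passed in FE8, and none of the interactions of these 9 genes passed the threshold. Over lists, the cholesterol median was -1.99 in FE8 and -0.71 in 208F, the interferon median 1.16 and 0.22, and the stress median -0.58 and 0.29, with 0 interaction calls in each of these lists.

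**Figure D5:**
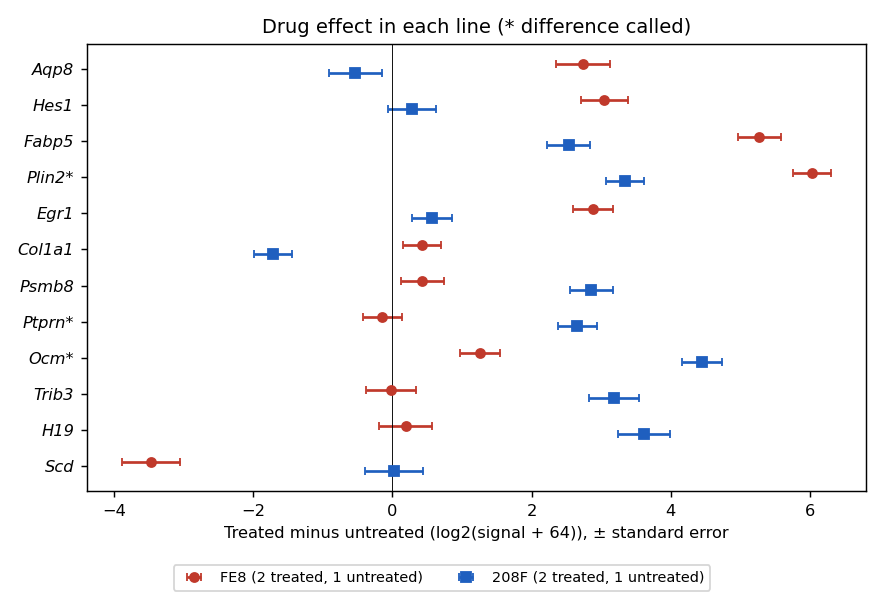
Log2 difference of treated from untreated cells (x axis, log2(signal + 64)) in FE8 (red circles) and 208F (blue squares) for the 12 genes with the smallest p of a difference between the lines' effects; bars are standard errors from the limma fit and an asterisk marks an adjusted p under 0.05. Plin2, Ocm and Ptprn carry the asterisk, with differences of 2.69, -3.19 and -2.80.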

How the data were processed

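RNA of 6 cultured rat fibroblast samples had been hybridised to 1-colour arrays. The authors deposited whole-number intensities, 1 per probe set and not on a log scale, and MAS5 is named per the submitters' processing notes, with no version or settings. The deposited values cover 4847 probe sets, chosen from the chip in a way that the sources used here do not give, of which 29 were controls and 4818 were tested. Intensities were taken as already scaled, since column means lay between 1258 and 1389.5, and transformed to log2(value + 64), where 64 is the 10th percentile. The number of arrays limits the precision.

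A model of 4 group means over all 6 arrays was estimated by limma 3.58.1 (R 4.3.3, with lmFit, then eBayes with an intensity trend, 2 residual and 9.02 prior degrees of freedom). The single untreated arrays were assumed to vary like the treated pairs. The FE8 treated pair shared chip lot and run day, the 208F treated pair did not, and the untreated arrays were of a further lot and day. The pooled spread thus mixes variation within and between sessions. Tests were 2-sided and moderated, with Benjamini-Hochberg adjustment over all tested probe sets. No replicate block was used, since the labels do not say that a number marks a shared culture. For treated replicate 2 of FE8 the settings list another scan beside the single set of values.

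Probe sets were named from the platform annotation, updated by gene identifier to rat assembly GRCr8: 3956 had 1 gene symbol (3942 by identifier), 207 several and 655 none, and 956 carried a suffix of shared probes. Named genes were the 20 largest rises and falls past the threshold (1 probe set per gene, smallest p), up to 5 called members per list and direction and any member of lists of up to 12 genes, genes moving from under 100 to at least 500 or the reverse, the 12 smallest p-values of the line difference, and Dnmt1, Clu, Cdkn1a and H19. The first group also had to change in the same direction in both treated arrays. The genes Ppib, Fkbp11, Irgm2 and Slfn5 come from the first group. List members that did not pass in larger lists were named as examples after their values were seen. There were 27 lists of 859 genes, 465 of them measured. The members and lists were chosen with earlier results of these data known. Scripts were tested on simulated data. Alternatives were the pseudocount (16 or 200), quantile normalization, median centring, a minimum mean signal of 100, no intensity trend, a robust prior, FE8 arrays alone, a replicate block, the mean of a gene's probe sets (for named genes added after seeing the data) and each treated array left out.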

Additional observations from a re-analysis of the deposited data

Results flagged for a closer look

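The drug effect differed between FE8 and 208F on 3 probe sets in the interaction test of limma after Benjamini-Hochberg adjustment (n = 2 treated and 1 untreated array per line). For Ocm the effect in FE8 minus that in 208F was -3.19 log2 units, for Ptprn -2.80, and for Plin2 2.69. Both treated arrays of each line lay on the same side of their control for all 3 genes. None of the 3 passed after quantile normalization (adjusted p = 0.11), with a mean signal of at least 100 (0.065), without an intensity trend (0.10), with the replicate block (0.13), or without FE8 treated replicate 1 (0.45) or 2 (0.48). With a pseudocount of 200 Plin2 passed (0.032), and Ocm (0.060) and Ptprn (0.079) did not. A second probe set of Plin2 had a difference of 0.94 between the lines (adjusted p = 0.86).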

How the results depend on the processing

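Of 111 named probe sets called (105 genes), none reversed in the alternatives run per probe set. By the mean of a gene's probe sets, an alternative chosen after seeing the data, the brightest probe set of Sparc reversed (-0.87), and Acly (-0.63), Bgn (-0.49), Calr (-0.98), Hspa5 (-0.91), Tkt (-0.84) and Top2a (-0.83) no longer passed. Probe sets called higher (244), lower (149) and in both directions (393) changed by more than 1.5 times as follows. With the FE8 arrays alone they were 417, 364 and 781, where the prior degrees of freedom were infinite. Quantile normalization gave 91 lower and 258 in both directions, and the fit without an intensity trend 86 lower. Leaving out 1 treated array gave 54 to 409 higher, 17 to 374 lower and 76 to 783 in both, the highest values from fits without a 208F treated array, where the prior degrees of freedom were infinite too. List members called numbered 97, 166 with FE8 arrays alone, and 26 to 161 with 1 array left out. The 3 interaction calls became 10 with a pseudocount of 16, 6 with 200, 9 after centring and 9 with a robust prior. They became 0 after quantile normalization (316 at an unadjusted p under 0.05 in limma), 0 with a mean signal of at least 100 (339), 0 without a trend (332) and 0 with the replicate block (499), and 0 to 206 with 1 array left out. The cause was not tested. The share of calls that were higher was 62.1%, 52.4% after centring and 64.7% after quantile normalization. With the replicate block 429 were called, 363 of them shared with the fit without it. The labels do not say what a replicate number marks. Differences between numbers correlated between the lines at r = 0.319. No pairing was assumed, and whether a number marks a shared culture or day was not settled. Of the named calls, 66 were lost without FE8 treated replicate 1 and 72 without replicate 2, 19 after quantile normalization, 17 without a trend, 11 after centring, 7 and 2 with pseudocounts of 200 and 16, 4 with the signal minimum, 3 with the block and 1 with the robust prior. Genes near the pseudocount have differences that are too small, and the single control gives no spread of its own.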
